A study of Mus musculus with 6 samples.

Results

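The genes described here build and run the mitotic spindle. They are 46 named genes for mitotic cyclins and kinases, spindle checkpoint proteins, kinetochore proteins, spindle motors, cytokinesis proteins and chromosome structure proteins. Each was represented by its brightest probe set, by mean over 6 arrays, among the probe sets that name 1 gene. Of the 46, 45 had such a probe set, out of 18193 genes that had one, and Ccnb1 (cyclin B1) was not analysed here. The arrays measured RNA from R1 cells, a mouse embryonic stem cell line, grown undifferentiated at 15% serum with 1000 U/mL of leukaemia inhibitory factor. The cells of 3 samples stably expressed a hairpin RNA (shRNA) directed at Pcl2, the Polycomb-like protein encoded by Mtf2, and those of the other 3 expressed a mismatch control sequence. The labels describe the samples of each group as biological replicates and the shRNA cells as 1 clone, so the shRNA and the clone cannot be told apart.

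Mitosis starts when cyclin A and cyclin B activate Cdk1, which, with the Polo-like and Aurora kinases, drives chromosome condensation and spindle assembly. Kinesins and microtubule-binding proteins shape the spindle, the Ndc80 complex at each kinetochore holds microtubule ends, and the spindle checkpoint delays anaphase until every kinetochore is attached. The anaphase-promoting complex with Cdc20 then marks cyclin B and securin for destruction, separase cuts cohesin, and the central spindle directs cytokinesis. Embryonic stem cells cycle quickly with short gap phases, and many of these genes are transcribed mainly in G2 and mitosis. In RNA from a whole culture, fewer mitotic cells and less RNA per cell cannot be told apart.

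Signals below are the authors' linear values, and a value after ± is the SD (n = 3 per group). Each change is a log2 difference, shRNA minus control, on the log2(signal + 7) scale, with its standard error (SE). Adjusted p-values are limma's, adjusted over all 13095 genes tested, with 0.05 as the threshold. Mtf2, the targeted gene, gave 1951, 1513 and 1704 on the control arrays and 1048, 1167 and 870 on the shRNA arrays, 59.7% of control (log2 -0.74, SE 0.17, adjusted p = 0.0157). Its adjusted p was 0.0594 without control replicate 1 and 0.058 without shRNA replicate 3. With the probe sets of Mtf2 averaged, its log2 fold change was -0.53 (adjusted p = 0.0305). The 3′ to 5′ signal ratio of beta-actin, a sign of RNA quality, was 1.14 to 1.22 on the control arrays and 1.18 to 1.33 on the shRNA arrays. Log2 values correlated at 0.965 to 0.974 within groups and at 0.943 to 0.962 between them. The summed signal of 11 embryonic stem cell markers was 25251 to 32814 on the control arrays and 37090 to 47585 on the shRNA arrays. Of these 11 genes, 9 had a log2 fold change above 0, against 52.4% of all genes. The 2 below 0 were Lin28a (-0.36) and Dppa3 (-0.22). Markers of other cell types summed to 548 to 1365 and 384 to 771 for 13 fibroblast genes, 339 to 454 and 246 to 309 for 9 primitive endoderm genes, 381 to 501 and 343 to 413 for 6 early neural genes, and 4965 to 9380 and 1116 to 1505 for 8 trophoblast genes. Most of the trophoblast sum in control came from the keratins Krt8, at 3550 ± 1027, and Krt18, at 3247 ± 1260. In shRNA cells these were at 147 ± 17.8 and 128 ± 20.9. Of the 6 trophoblast genes tested, 5 had a log2 fold change below 0. The other 1 was Tfap2c, at 566 ± 72.3 in control and 813 ± 169 in shRNA cells. Of the 4 primitive endoderm genes tested, Dab2 was at 211 ± 41.5 in control and 56.7 ± 14.5 in shRNA cells. The others were Gata4, Gata6 and Foxa2, at log2 0.00, 0.03 and -0.05. The fibroblast genes Lum and Dcn were at or below background, a signal of 20.3, on every array. The part of these markers in the results on mitosis genes was not tested.

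Of the 45 measured genes, 1 rose, none fell and 44 did not pass limma's threshold. Among all genes tested, 4.46% rose and 8.16% fell. The gene that rose was Hmmr, the hyaluronan receptor that also binds spindle microtubules. At an unadjusted p under 0.05, 9 of the 45 were higher and 0 lower, against 11.3% and 14.8% of all genes tested. The 3 shRNA arrays all lay above the 3 control arrays for 10 genes and below them for 0, against 14.5% and 16.7% of all genes. For each of these 10 the exact two-sided permutation test gave p = 0.1, the smallest that 3 against 3 arrays allow.

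The sizes of the differences were small. The 45 log2 fold changes ran from -0.23 for Plk1 to 0.59 for Hmmr, with a median of 0.13, beside a median of 0.02 over all genes tested. Of the 45, 35 lay above 0, where 52.4% of all genes did. The 95% confidence interval stayed within 2-fold both ways for 45 of 45 genes, against 71.0% of all genes, and within 1.5-fold for 26, against 22.4%. The median SE was 0.17 for the 45 and 0.22 for all genes, so their intervals were also narrower. All 45 passed the filter on low signals, which lay at 20.2, and the lowest signal of any of them on any array was 141. The part of signal level in these interval shares was not tested.

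**Figure D1:**
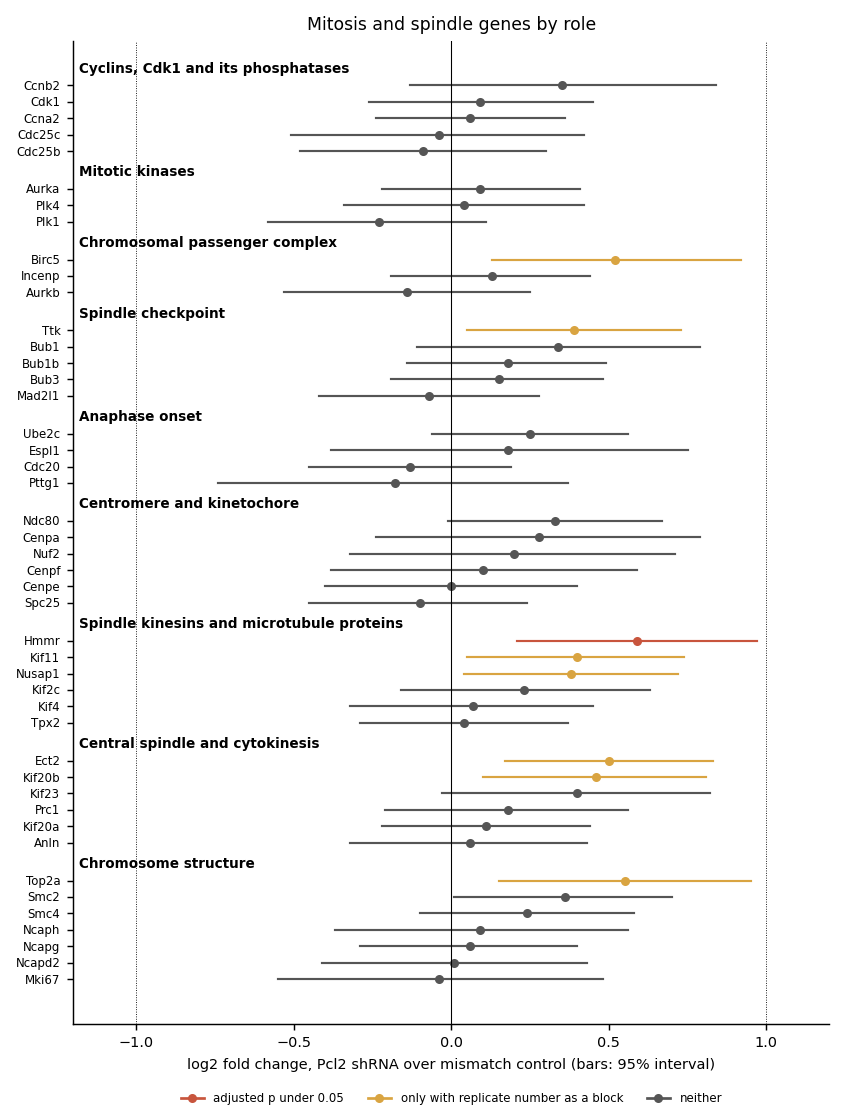
Log2 fold change of Pcl2 shRNA over mismatch control for each of the 45 measured mitosis genes, grouped by role, with points at the fitted value and bars for the 95% confidence interval. Hmmr lies farthest right at 0.59 and Plk1 farthest left at -0.23, and most intervals cross 0.

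Samples carry the numbers 1 to 3 within each group, and the labels do not say what a number marks. Over all genes tested, deviations from group means correlated at 0.25 to 0.40 for the same number. The pairing used next rests only on these correlations, which come from the same data. With the replicate number as a block, 8 of the 45 genes rose (Birc5, Ect2, Hmmr, Kif11, Kif20b, Nusap1, Top2a and Ttk) and 0 fell, where 9.97% and 13.8% of all genes did. Differences taken within each number were above 0 in all 3 pairs for 19 of the 45, against 27.3% of all genes. They were below 0 in all 3 for 3, and the share of all genes below 0 was not computed, so the 2 counts cannot be compared. The call of Hmmr rested on several arrays, since its adjusted p was 0.157 without shRNA replicate 1, 0.113 without shRNA replicate 2, 0.102 without shRNA replicate 3, 0.144 without control replicate 1 and 0.108 without control replicate 2. It was also lost with quantile normalization (0.0601), median centring (0.0557), a pseudocount of 1 (0.0501), no signal filter (0.073), no eBayes trend (0.0941) or probe sets averaged (0.0545). Without control replicate 2 the gene that rose was Birc5 in its place, and without control replicate 3 both Ect2 and Hmmr rose.

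Promoter sequences are shown because many of these genes share short elements near their start sites, which the choice of genes did not use. Mitotic genes are known for the cell cycle homology region (CHR), whose core is TTTGAA or TTCGAA, and for CCAAT boxes, bound by the trimeric factor NF-Y. RefSeq windows of the GRCm38.p6 assembly, 250 bases before to 50 after the start, held 42 windows for 39 of the genes. Both strands were searched. A CHR core was present in 33 of the 42 windows (78.6%), against 19.2% of 32851 windows of all genes. A CCAAT box was present in 31 (73.8% against 37.4%), at least 2 boxes in 20 (47.6% against 11.7%), and both elements in 29 of the 42, against 7.52% of all windows. Of 30 windows of DNA replication and G1/S genes, 6 held a CHR core and 5 both elements.

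The 120 bases before the start are given for Hmmr (chr11:40733438-40733557, minus strand), Top2a (chr11:99024190-99024309, minus strand) and Kif11 (chr19:37376262-37376381, plus strand), whose shRNA and control arrays did not overlap, and for Cdk1 (chr10:69352913-69353032, minus strand) and Cdc20 (chr4:118437344-118437463, minus strand), whose arrays did. They are written 5′ to 3′ on the gene's strand, with CHR cores and CCAAT boxes in capitals on either strand. Thus ATTGG is a CCAAT box and TTCAAA a CHR core read on the other strand. The only CHR core in the Hmmr window lies 8 bases after the start, outside the stretch printed here.
Hmmr: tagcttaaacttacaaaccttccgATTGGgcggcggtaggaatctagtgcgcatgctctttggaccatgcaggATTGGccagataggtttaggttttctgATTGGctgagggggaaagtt
Top2a: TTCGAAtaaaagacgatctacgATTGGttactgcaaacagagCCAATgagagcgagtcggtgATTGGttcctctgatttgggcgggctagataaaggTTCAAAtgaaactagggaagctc
Kif11: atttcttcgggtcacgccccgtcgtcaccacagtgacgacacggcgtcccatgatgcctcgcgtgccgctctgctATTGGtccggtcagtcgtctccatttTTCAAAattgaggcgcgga
Cdk1: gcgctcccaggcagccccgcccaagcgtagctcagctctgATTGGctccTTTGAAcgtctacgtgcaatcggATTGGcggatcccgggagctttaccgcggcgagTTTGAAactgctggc
Cdc20: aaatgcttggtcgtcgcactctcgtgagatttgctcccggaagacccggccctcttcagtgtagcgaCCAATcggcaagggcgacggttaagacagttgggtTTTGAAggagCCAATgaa

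The fold changes of genes with and without the elements covered overlapping ranges. The 26 measured genes whose window held both had a median log2 fold change of 0.18 (from -0.23 to 0.59), and the 12 whose window did not had a median of 0.15 (from -0.18 to 0.52). Of the 10 genes whose groups did not overlap, 7 had both elements. A match of these letters is a description of the sequence and not a measured binding site.

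None of the 5 measured cyclin, Cdk1 and phosphatase genes passed the test. Cdk1, the kinase that drives entry, gave 1818, 2154 and 2596 on the control arrays and 2350, 2215 and 2377 on the shRNA arrays (log2 0.09, SE 0.16, 95% interval -0.26 to 0.45). The shRNA values lay inside the control range. Ccna2 (cyclin A2) was at 1899 ± 89.6 in control and 1983 ± 95.2 in shRNA cells (log2 0.06). Ccnb2 (cyclin B2) varied most between replicates of this role, at 1099, 1455 and 1935 against 1685, 1678 and 2285, and was higher in the shRNA sample of each number (log2 0.35, adjusted p = 0.352, and 0.0793 with the block). The phosphatases that activate Cdk1 were Cdc25b, at 173 ± 19.4 and 161 ± 10.4 (log2 -0.09), and Cdc25c, at 172 ± 46.8 and 163 ± 7.91 (log2 -0.04).

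Plk1, the Polo-like kinase needed for centrosome maturation and anaphase, had the lowest fold change of the 45 genes. Its signals were 1059, 1284 and 1403 on the control arrays and 1004, 1129 and 1036 on the shRNA arrays, lower in each numbered pair but overlapping between groups (log2 -0.23, SE 0.16, interval -0.58 to 0.11, adjusted p = 0.398). Aurka, the spindle pole kinase, was at 1178 ± 104 and 1252 ± 35.8 (log2 0.09), and Plk4, the kinase of centriole duplication, at 681 ± 122 and 695 ± 66.5 (log2 0.04). None of these 3 kinases passed the test.

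The chromosomal passenger complex corrects faulty kinetochore attachments, and its 3 measured members had unlike values. Birc5 (survivin) gave 1305, 1859 and 1394 in control and 2415, 2267 and 1847 in shRNA cells (log2 0.52, SE 0.18, adjusted p = 0.086, and 0.0257 with the block). The lowest shRNA array lay just under the highest control array. Aurkb, the kinase of the complex, was at 453 ± 67.6 and 411 ± 55.0 (log2 -0.14), and Incenp, its scaffold, at 1780 ± 178 and 1940 ± 100 (log2 0.13).

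Among the brightest probe sets of the 5 checkpoint genes, only that of Ttk had groups that did not overlap. Ttk encodes the kinase that starts checkpoint signalling at unattached kinetochores, and gave 437, 551 and 519 against 629, 662 and 679 (log2 0.39, SE 0.15, adjusted p = 0.136, and 0.0443 with the block). Bub1, a kinase at the kinetochore, was at 1095 ± 237 and 1383 ± 251 and higher in each numbered pair (log2 0.34, adjusted p = 0.333). Bub1b (BubR1), which inhibits Cdc20, was at 1257 ± 117 and 1419 ± 65.5, with overlap. Another probe set of Bub1b gave 831, 946 and 1015 against 1220, 1140 and 1183, without overlap (log2 0.35). Its partners in that inhibitor, Bub3 and Mad2l1 (Mad2), had log2 fold changes of 0.15 and -0.07. For Bub3 shRNA replicate 1 stood apart, at 2745 beside 2089 and 2228, with 2148, 2117 and 2075 in control.

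None of the 4 genes of anaphase onset passed the test. Ube2c, the ubiquitin-conjugating enzyme of the anaphase-promoting complex, gave 1927, 2136 and 1875 against 2539, 2291 and 2236, without overlap (log2 0.25, SE 0.14, adjusted p = 0.298). Cdc20, the activator of that complex, was at 4632 ± 504 and 4215 ± 202 (log2 -0.13, interval -0.45 to 0.19). Securin (Pttg1) spread widely in both groups, from 2251 to 4066 in control and from 2205 to 3717 in shRNA cells (log2 -0.18, SE 0.25). Separase (Espl1) was lowest at number 1 in both groups, with 408 beside 780 and 726 in control and 548 beside 734 and 845 in shRNA cells (log2 0.18, SE 0.26, and 0.13 with the block).

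**Figure D2:**
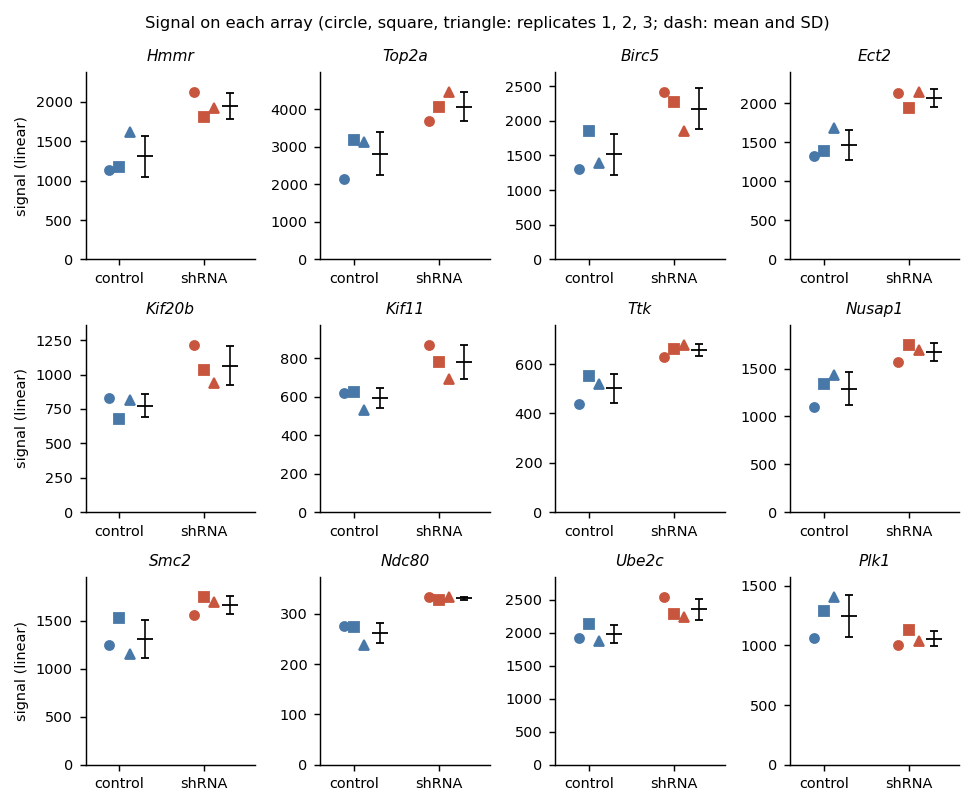
Linear signal on each of the 6 arrays for 12 mitosis genes, with circles, squares and triangles for replicates 1, 2 and 3 and a dash with bars for the mean and SD of 3 arrays. The shRNA arrays lie above the control arrays for Hmmr, Top2a, Ect2, Kif20b, Kif11, Ttk, Nusap1, Smc2, Ndc80 and Ube2c, and the groups overlap for Birc5 and Plk1.

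At the centromere and kinetochore 0 of 6 genes passed. Ndc80, which gives its name to the microtubule-binding complex, gave 275, 273 and 239 in control and 333, 327 and 333 in shRNA cells, without overlap (log2 0.33, SE 0.15, adjusted p = 0.211). The groups overlapped for its partners in the complex, Nuf2 at 340 ± 89.7 and 387 ± 84.5 (log2 0.20) and Spc25 at 570 ± 48.4 and 531 ± 50.6 (log2 -0.10). Cenpa, the histone H3 variant of centromeres, was at 1497 ± 451 and 1794 ± 379 (log2 0.28, adjusted p = 0.509). Cenpf, a large kinetochore protein, ranged from 696 to 1303 in control (log2 0.10), and the kinetochore motor Cenpe was at 342 ± 45.2 and 343 ± 51.3.

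Spindle kinesins and microtubule proteins had the highest median of the roles, 0.31 over 6 genes, from 0.04 to 0.59. Hmmr gave 1132, 1178 and 1610 in control and 2123, 1801 and 1919 in shRNA cells. All shRNA arrays lay above all control arrays, and its mean was 150% of control (log2 0.59, SE 0.17, interval 0.21 to 0.97, adjusted p = 0.049, and 0.0161 with the block). Kif11 (Eg5), the motor that pushes spindle poles apart, gave 620, 626 and 533 against 872, 784 and 694 (log2 0.40, SE 0.16, adjusted p = 0.136, and 0.0362 with the block). Nusap1, which bundles spindle microtubules near chromosomes, gave 1096, 1340 and 1430 against 1572, 1749 and 1697 (log2 0.38, SE 0.15, adjusted p = 0.14, and 0.0454 with the block). Neither Kif11 nor Nusap1 overlapped between groups. The other members of this role were the microtubule depolymerase Kif2c at 852 ± 134 and 1002 ± 158 (log2 0.23), the chromokinesin Kif4 at 280 ± 44.8 and 292 ± 21.2 (log2 0.07), and Tpx2, an activator of Aurora A, at 724 ± 52.7 and 745 ± 67.0 (log2 0.04).

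Genes of the central spindle and cytokinesis had a median log2 fold change of 0.29 over 6 genes, none of which passed without the block. Ect2, which activates RhoA at the division furrow, gave 1327, 1390 and 1683 against 2125, 1936 and 2143, without overlap (log2 0.50, SE 0.15, interval 0.17 to 0.83, adjusted p = 0.054, and 0.0166 with the block). Kif20b, a kinesin of the midzone and midbody, gave 826, 677 and 816 against 1217, 1035 and 942, also without overlap (log2 0.46, SE 0.16, adjusted p = 0.0964, and 0.0292 with the block). Kif23, the motor of the centralspindlin complex, gave 337, 397 and 389 against 393, 625 and 489, where the lowest shRNA array lay inside the control range (log2 0.40, SE 0.19, adjusted p = 0.225). Prc1, which bundles the central spindle, was at 960 ± 104 and 1094 ± 191 (log2 0.18), Kif20a at 605 ± 21.2 and 658 ± 66.1 (log2 0.11), and the furrow protein Anln at 1739 ± 353 and 1786 ± 82.2 (log2 0.06).

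The 7 chromosome structure genes spanned log2 -0.04 to 0.55. Top2a, the topoisomerase that untangles sister chromatids, gave 2144, 3172 and 3129 in control and 3686, 4051 and 4452 in shRNA cells, without overlap (log2 0.55, SE 0.18, interval 0.15 to 0.95, adjusted p = 0.0772, and 0.0156 with the block). Mki67, the proliferation marker that coats mitotic chromosomes, gave 523, 784 and 1075 against 710, 760 and 754 (log2 -0.04, SE 0.23). Its control arrays spanned the shRNA values on both sides. The condensin ATPases were Smc2, at 1243, 1527 and 1152 against 1560, 1744 and 1695 without overlap (log2 0.36, adjusted p = 0.174), and Smc4, at 2612 ± 232 and 3094 ± 406 (log2 0.24, adjusted p = 0.373). The condensin I subunits Ncapd2, Ncapg and Ncaph had log2 fold changes of 0.01, 0.06 and 0.09 at their brightest probe sets. Their other probe sets were at 0.48, 0.43 and 0.09. That of Ncapd2 was dim, at 30.6, 37.4 and 65.7 in control, beside a background of 20.3. That of Ncapg gave 241, 246 and 288 against 333, 355 and 361, without overlap, and those of Ncapd2 and Ncaph overlapped.

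The other probe sets of the same genes gave further values for most of them. The 45 genes had 104 probe sets, of which 48 besides the chosen ones reached the signal filter. Of these 48, 40 had a log2 fold change above 0, 15 lay higher without overlap and 0 lower, where 52.4%, 14.5% and 16.7% of all genes did. Those shares count only the brightest probe set of each gene, whereas some genes gave several of the 48. The shares among other probe sets of all genes were not computed. Hmmr had 5 probe sets, from 0.55 to 0.67, and 4 of the 5 did not overlap between groups. The 3 probe sets of Kif11 were at 0.32, 0.40 and 0.48, all without overlap, and another one of Top2a was at 0.88. Probe sets disagreed in sign for some genes, among them Bub3, from -0.13 to 0.90, and Ttk, whose other probe set was at -0.07. The Bub3 probe set at 0.90 gave 26.3, 5.58 and 31.0 in control, near the background of 20.3 and below it on control replicate 2, so its fold change is a weak measure of Bub3. In 21 of the 29 genes measured by several probe sets, all had the same sign.

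**Figure D3:**
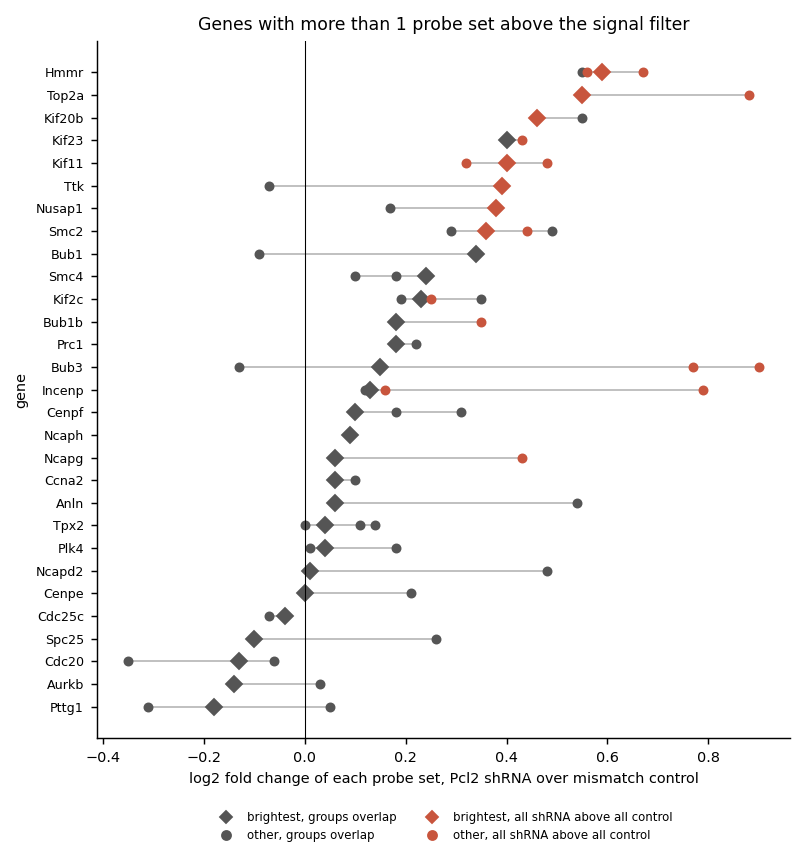
Log2 fold changes, Pcl2 shRNA over mismatch control, for every tested probe set of the mitosis genes that have more than 1, with 1 line per gene. The 5 probe sets of Hmmr lie between 0.55 and 0.67, whereas those of Bub3 run from -0.13 to 0.90, the last from a probe set near background in control.

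Much of the spread lay among the control arrays. The mean log2 signal over the 45 genes was 9.72, 9.86 and 10.02 on control arrays 1 to 3 and 10.02, 10.02 and 10.06 on shRNA arrays 1 to 3, so that control replicate 3 reached the shRNA level. Control replicate 1 was the lowest control array for 30 of the 45 genes, where it was for 30.3% of all genes tested, and the lowest of all 6 arrays for 23. Control replicate 3 lay above control replicate 1 for 35 genes, with a median difference of log2 0.26, against 0.01 over all genes. The SD on the log2 scale was larger in control than in shRNA cells for 33 of the 45, against 60.3% of all genes. The median SD of the 45 was 0.21 in control and 0.13 in shRNA cells, beside 0.26 and 0.21 over all genes.

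**Figure D4:**
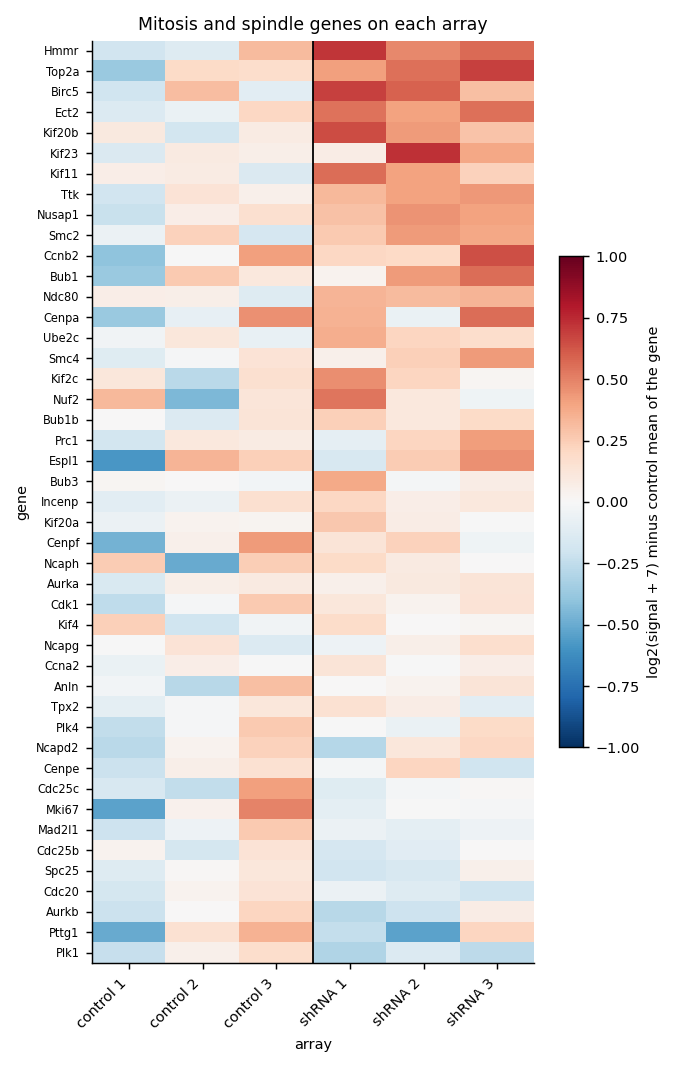
Log2 signal of the 45 measured mitosis genes on each of the 6 arrays, as the difference from the gene's mean over the 3 control arrays, with genes ordered by fold change. Control replicate 1 is the lowest control array for 30 of the 45 genes.

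Other genes of the same machinery were tested in 8 further lists (mitotic entry, anaphase-promoting complex, outer kinetochore, centromere chromatin, spindle motors, centrosome, cohesin and condensin, and transcription regulators of mitotic genes). Of their 155 genes, 7 rose and 3 fell, with a median of log2 0.16, where 4.46% and 8.16% of all genes did, so the share that rose was near that of all genes. With the block 28 rose and 7 fell, against 9.97% and 13.8% of all genes. The genes that rose were Esco2, the acetyltransferase that sets cohesion during replication (log2 1.13), Cep55, a midbody protein (1.03), Mybl2, a transcription factor of late cell cycle genes (0.69), the centromere protein Cenpu (0.66), the centrosome protein Cep192 (0.65), the Ndc80 complex subunit Spc24 (0.64) and the condensin II subunit Ncapd3 (0.63). Those that fell were Plk2, a Polo-like kinase (-1.55), the cohesin subunit Stag2 (-0.68) and the microtubule protein Clasp1 (-0.64), which was at -0.06 when its probe sets were averaged.

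The calls differed in how they stood when 1 array was left out. Esco2, Cep55 and Plk2 kept theirs without any 1 array. Cep192 and Ncapd3 lost theirs without control replicate 1, shRNA replicate 1 or shRNA replicate 2, and Stag2 without control replicate 3, shRNA replicate 2 or shRNA replicate 3. Mybl2 lost its call without control replicate 1 or 3 or shRNA replicate 2 or 3. Clasp1, Spc24 and Cenpu each lost theirs without any of 5 arrays, and kept it only without control replicate 3, shRNA replicate 1 and control replicate 1, respectively. Other settings ended some calls too. Median centring ended those of Spc24 (adjusted p = 0.0545) and Clasp1 (0.0523), no signal filter that of Spc24 (0.0526), averaged probe sets those of Cenpu (0.0751) and Clasp1 (0.865), array weights that of Cenpu (0.0694), and no eBayes trend those of Spc24 (0.0701), Cenpu (0.0596) and Mybl2 (0.0562).

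By list, 0 of 19 tested genes of the anaphase-promoting complex and mitotic exit passed, with a median of 0.01. Centromere chromatin had 1 of 18 that rose (4.46% of all genes), with a median of 0.22, and 6 that rose with the block (9.97% of all genes). Mitotic entry genes had 1 of 18 that fell (8.16% of all genes), with a median of 0.24. The 16 transcription regulators, at a median of 0.19, held Mybl2, at 1363 ± 146 in control and 2216 ± 387 in shRNA cells (adjusted p = 0.0245). They also held Foxm1, an activator of mitotic genes, which was at 322 ± 70.9 and 207 ± 34.1 (log2 -0.61, adjusted p = 0.0807) and fell with the block (0.011). Foxm1 was chosen after its values were seen.

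DNA replication and G1/S genes, which act before mitosis, had a higher median than the mitosis genes. Of 31 tested, 5 rose and 0 fell, against 4.46% and 8.16% of all genes, with a median of log2 0.33. Of the 31, 29 lay above 0, against 52.4% of all genes, and 11 rose with the block, against 9.97%. The 5 were Pola1, the catalytic subunit of DNA polymerase alpha (log2 1.04), and the replication helicase or loading factors Mcm10 (0.64), Gins1 (0.64), Mcm3 (0.62) and Mcm5 (0.53). Of the 31, 12 lay higher without overlap and 1 lower, against 14.5% and 16.7% of all genes. The 1 that lay lower was Mcm2, at 1969 ± 367 in control and 1508 ± 114 in shRNA cells (log2 -0.37, adjusted p = 0.191). Pola1 kept its call without any 1 array. Mcm3 and Mcm5 were named after their values were seen, and without control replicate 3 their adjusted p-values were 0.126 and 0.137. They also lost their calls without control replicate 1 or without any of the 3 shRNA arrays. Mcm10 and Gins1 lost theirs without control replicate 1 or 3 or any of the 3 shRNA arrays. With median centring Mcm10 (0.0591), Gins1 (0.0607), Mcm3 (0.0839) and Mcm5 (0.0919) lost their calls and Pola1 kept its own. With no eBayes trend the same 4 lost theirs (0.0615, 0.0607, 0.0842 and 0.0957). Mcm3 and Mcm5 also lost theirs with no signal filter (0.0722 and 0.0777), averaged probe sets (0.0589 and 0.119) and no cross-hybridising probe sets (0.0853 and 0.123), Mcm10 with averaged probe sets (0.12) and Mcm5 with quantile normalization (0.063). The difference between the G1/S and mitosis medians was not tested.

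**Figure D5:**
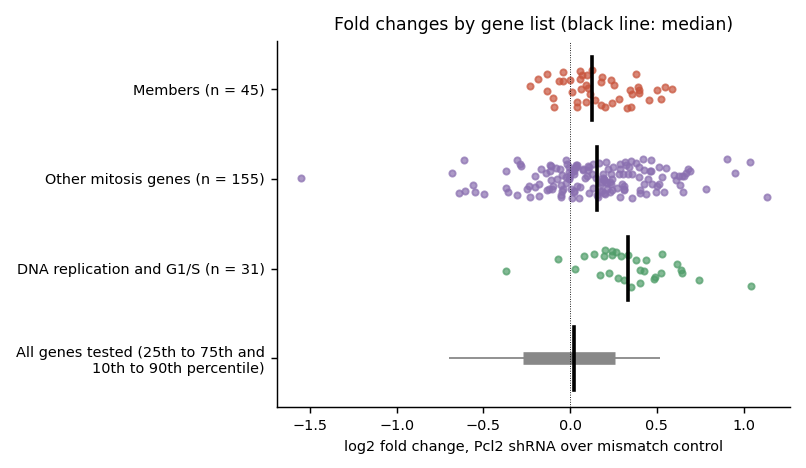
Log2 fold changes, Pcl2 shRNA over mismatch control, for the 45 measured mitosis genes, 155 other mitosis genes and 31 DNA replication and G1/S genes, with the spread over all genes tested as percentiles and black lines at the medians. The medians are 0.13, 0.16, 0.33 and 0.02.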

How the data were processed

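Each deposited value was a probe set intensity that the authors computed with GCOS 1.4, per the labels, as a MAS5 signal, per the submitters' processing notes. Every array had a mean of 150 after trimming 2% from each end, so the scaling was kept. Other settings were not stated. From these deposited intensities, log2(signal + 7) was computed, where 7 is the 20th percentile of all signals, which understates changes of dim genes. A probe set naming 1 gene in the platform annotation was tested if its mean reached the 40th percentile, and the brightest stood for its gene. Background was 20.3, the highest signal of 27 unspiked bacterial control probe sets on any array. Their highest signal per array was 11.2 to 12.1 on the control arrays and 18.0 to 20.3 on the shRNA arrays.

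Differences were tested across all genes with limma 3.58.1 in R 4.3.3 (lmFit, eBayes with an intensity trend, two-sided, Benjamini-Hochberg), checked on simulated data. Array number limits the precision. The named genes were all members, Mtf2, and from each further list up to 3 genes with the smallest p past the threshold, or the 2 brightest (Ube2s and Anapc5) where none passed. Mcm2, Mcm3, Mcm5 and Foxm1 were added after their values were seen. The members, lists and tests were chosen with earlier results of these data known. Whether a number marks a shared culture is not given in the labels. Deviations from group means correlated at 0.25 to 0.40 for the same number and at -0.38 to -0.00 for different ones. From these correlations only, samples of one number were treated as pairs in the replicate block and the differences within numbers. The main fit did not use the number. The alternatives were other normalizations, pseudocounts, filters, probe set rules and eBayes settings, the replicate block, array weights and each array left out. Promoters came from RefSeq (GRCm38.p6).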

Additional observations from a re-analysis of the deposited data

How the results depend on the processing

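The median of the 45 mitosis genes stayed above 0 under each alternative run, from 0.09 to 0.22 with 1 array left out and from 0.11 to 0.20 otherwise. No alternative made any of them fall. The count that rose was 1 in the main fit. It became 0 with quantile normalization, median centring, a pseudocount of 1, no signal filter or no eBayes trend. Over all genes these settings called 491 to 635 higher, against 584 in the main fit. The count became 2 with a filter at the 60th percentile, where 568 of 9869 genes rose. It was 4 with array weights and 8 with the replicate block, where 885 and 1305 of 13095 genes rose. With 1 array left out it ran from 0 to 2, where 263 to 568 of all genes rose. With probe sets averaged, Top2a rose (adjusted p = 0.0458) and Hmmr did not (0.0545). The replicate block rests on numbers that the labels do not tie to a shared culture, and the cause of the other moves was not tested.

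Of 854 values of single genes under alternatives, 31 changed sign, in 17 genes with log2 fold changes of at most 0.20 in size. Quantile normalization gave 0.03 for Cdc25c, 0.04 for Cenpe and -0.01 for Ncapd2. Median centring gave 0.02 for Cenpe, averaging of probe sets 0.10 for Cenpe and 0.08 for Spc25, leaving out cross-hybridising probe sets -0.13 for Bub3, and array weights 0.14 for Cenpe and 0.06 for Mki67. With 1 array left out, the ranges that crossed 0 were -0.03 to 0.22 for Cdk1, -0.08 to 0.17 for Plk4, -0.11 to 0.36 for Espl1, -0.13 to 0.32 for Cenpf, -0.02 to 0.11 for Tpx2, -0.12 to 0.16 for Ncapd2, -0.11 to 0.10 for Cenpe, -0.03 to 0.36 for Nuf2, -0.03 to 0.19 for Kif4, -0.08 to 0.21 for Anln, -0.16 to 0.22 for Ncaph, -0.17 to 0.16 for Cdc25c, -0.17 to 0.06 for Mad2l1, -0.31 to 0.21 for Mki67 and -0.01 to 0.12 for Ncapg. Ube2s, of the anaphase-promoting complex list, ranged from -0.01 to 0.47. Signals of the 45 genes were above background on every array.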
